A study of Mus musculus with 6 samples.

Results

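Cdkn1a, Cdkn2a, Cdkn2b, Trp53, Mdm2, Lmnb1, Il6, Gdf15 and Glb1 are genes by which cellular senescence and cell cycle arrest are commonly followed, and their levels are described here in nuclei of mouse white adipose tissue. These 9 genes were found by symbol among the 56980 genes listed for every library, of which 41598 had at least 1 unique molecular identifier (UMI, 1 counted RNA molecule) in the nuclei kept. Single-nucleus RNA sequencing had been carried out on adipose tissue of female C57BL/6J mice, with 2 libraries in each of 3 groups. Inguinal fat, a subcutaneous depot (SAT), was sampled from mice of 2 and of 24 months, and gonadal fat, a visceral depot (VAT), from mice of 24 months, so that VAT at the younger age is not analysed here. The age of 24 months follows the sample labels, whereas the series' design text has 26 months. No genetic or drug treatment is named for any group, and all libraries carry 1 date. By the study's text both depots of an age came from the same 2 mice, but which libraries share a mouse is not given, so the depots are compared unpaired and the tests below measure only the spread between these libraries.

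Senescent cells leave the cell cycle for good while staying metabolically active. The arrest is held by inhibitors of cyclin-dependent kinases (CDKs): p21, the product of Cdkn1a, is induced by p53, and p16 and p15, the products of Cdkn2a and Cdkn2b, block the kinases that pair with D-type cyclins, so that RB stays active and E2F target genes stay off. Cdkn2a also encodes p19Arf from a separate first exon, a protein that binds MDM2 and so stabilises p53, and MDM2 is both the ubiquitin ligase that degrades p53 and a p53 target itself. Loss of lamin B1 (Lmnb1) from the nuclear lamina, secretion of factors such as interleukin-6 (Il6) and the stress cytokine GDF15, and a rise of lysosomal beta-galactosidase (Glb1), which underlies the senescence-associated beta-galactosidase stain, are further marks in common use. In aging adipose tissue such marks have been described in progenitors, endothelial cells, macrophages and adipocytes.

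The results turn most on Cdkn1a and Cdkn2a, and each has 2 annotated start sites. The 250 bases before each start were read from RefSeq on GRCm38.p6, where 8 of the 9 genes were matched, and both strands were searched for the p53 half-site, the GC box GGGCGG and the TATA sequence TATAA, which do not share bases in the matches shown. Matches are in capitals. These windows are shown because they mark where p53 could act on Cdkn1a and which of the Cdkn2a products a start belongs to. The windows of Cdkn2a show its distal start, from which p19Arf is transcribed, and its proximal start, from which p16 is transcribed. Counts per gene cannot tell these transcripts apart.
Cdkn1a, start 1, chr17:29090729-29090978, plus strand: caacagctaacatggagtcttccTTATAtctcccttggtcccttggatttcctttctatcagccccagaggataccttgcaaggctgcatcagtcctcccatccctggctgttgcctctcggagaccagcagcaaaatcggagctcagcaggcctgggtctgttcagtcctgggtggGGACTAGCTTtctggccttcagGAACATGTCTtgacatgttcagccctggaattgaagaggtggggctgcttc
Cdkn1a, start 2, chr17:29093519-29093768, plus strand: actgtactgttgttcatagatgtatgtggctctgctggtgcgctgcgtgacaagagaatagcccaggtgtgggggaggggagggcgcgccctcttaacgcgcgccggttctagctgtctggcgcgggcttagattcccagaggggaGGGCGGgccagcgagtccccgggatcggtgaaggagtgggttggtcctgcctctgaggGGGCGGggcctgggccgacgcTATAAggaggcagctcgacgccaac
Cdkn2a, distal start, chr4:89294620-89294869, minus strand: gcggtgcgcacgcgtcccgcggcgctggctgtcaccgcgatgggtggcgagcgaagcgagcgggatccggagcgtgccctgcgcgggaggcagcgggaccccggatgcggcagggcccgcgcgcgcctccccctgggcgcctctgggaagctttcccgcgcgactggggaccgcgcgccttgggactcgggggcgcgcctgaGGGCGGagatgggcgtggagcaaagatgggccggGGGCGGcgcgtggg
Cdkn2a, proximal start, chr4:89282193-89282442, minus strand: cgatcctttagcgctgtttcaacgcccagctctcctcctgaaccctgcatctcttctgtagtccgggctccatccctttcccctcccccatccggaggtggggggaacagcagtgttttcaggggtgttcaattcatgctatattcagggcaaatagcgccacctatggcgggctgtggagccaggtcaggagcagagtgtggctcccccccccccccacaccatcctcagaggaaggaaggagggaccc

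Start 1 of Cdkn1a held 2 matches to the p53 half-site, 73 to 64 and 51 to 42 bases before the start, and the TATA sequence on the reverse strand. Start 2 held 2 GC boxes and TATAA 25 to 21 bases before the start. The distal start of Cdkn2a held 2 GC boxes in a window of 78.4% G and C, and the proximal start held none of the 3 motifs. Of 32851 windows of the same length, 7.13% held a p53 half-site, 32.7% a GC box and 22.8% the TATA sequence. A match describes these letters and is not a site shown to be bound.

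The libraries held 8061862 to 16226690 UMIs in 6158 to 11341 barcodes, and 27074 nuclei passed the filters, 2490 to 5776 per library, with a median of 1380 to 1878 UMIs per nucleus. At most 0.769% of the barcodes of a library also occurred in another. Although the labels call the cells adipocytes, marker genes split the nuclei into many classes, of which adipocytes made up 27.0% and immune nuclei 38.7%. The class names used here stand for clusters that resembled a cell type by a list of markers; mature dendritic-like nuclei, for example, carried Fscn1, Ccr7, Cacnb3, Ccl22 and Il4i1 at a summed level of 5221 to 7877 CPM (UMIs scaled to a fixed total per class and library) wherever a library had at least 20 such nuclei, with macrophage markers at 189 to 313 CPM against 5813 to 12880 CPM in macrophages. The study gave nuclei with Fscn1 and Cacnb3 a macrophage name, so differences from it may come from these rebuilt classes. An unnamed cluster of 410 nuclei, with 30 to 125 in each library, matched a list of lymph node markers best and had Ccl21a, Cxcl13 and Cr2 among its leading genes. Mature dendritic nuclei numbered 188 to 480 per SAT library, against 1 and 40 in VAT. Whether immune nuclei came from fat or from lymph node tissue in the dissection cannot be told apart here. Replicate 2 of VAT stood apart, with ovary and oviduct markers at 2645 CPM against 23.8 to 47.0 CPM in the other libraries and adipocyte markers at 920 CPM against 1679 to 13090 CPM, and its median mitochondrial share was 5.07% of UMIs against 0.776% to 3.49%.

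Levels by class were compared first, to see which classes of nuclei in the dissected tissue carried the 9 transcripts. A level is the value in CPM of UMIs summed over the nuclei of a class in a library with at least 20 such nuclei, and a mean is over libraries with its SD. The classes came from clustering, from which the 9 genes had been left out, and the differences between classes are a description with no test. The CDK inhibitors were concentrated in mature dendritic nuclei, Lmnb1 in cycling nuclei and Gdf15 in macrophages, while Trp53, Mdm2 and Glb1 were found in every main class and Il6 was close to absent.

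**Figure D1:**
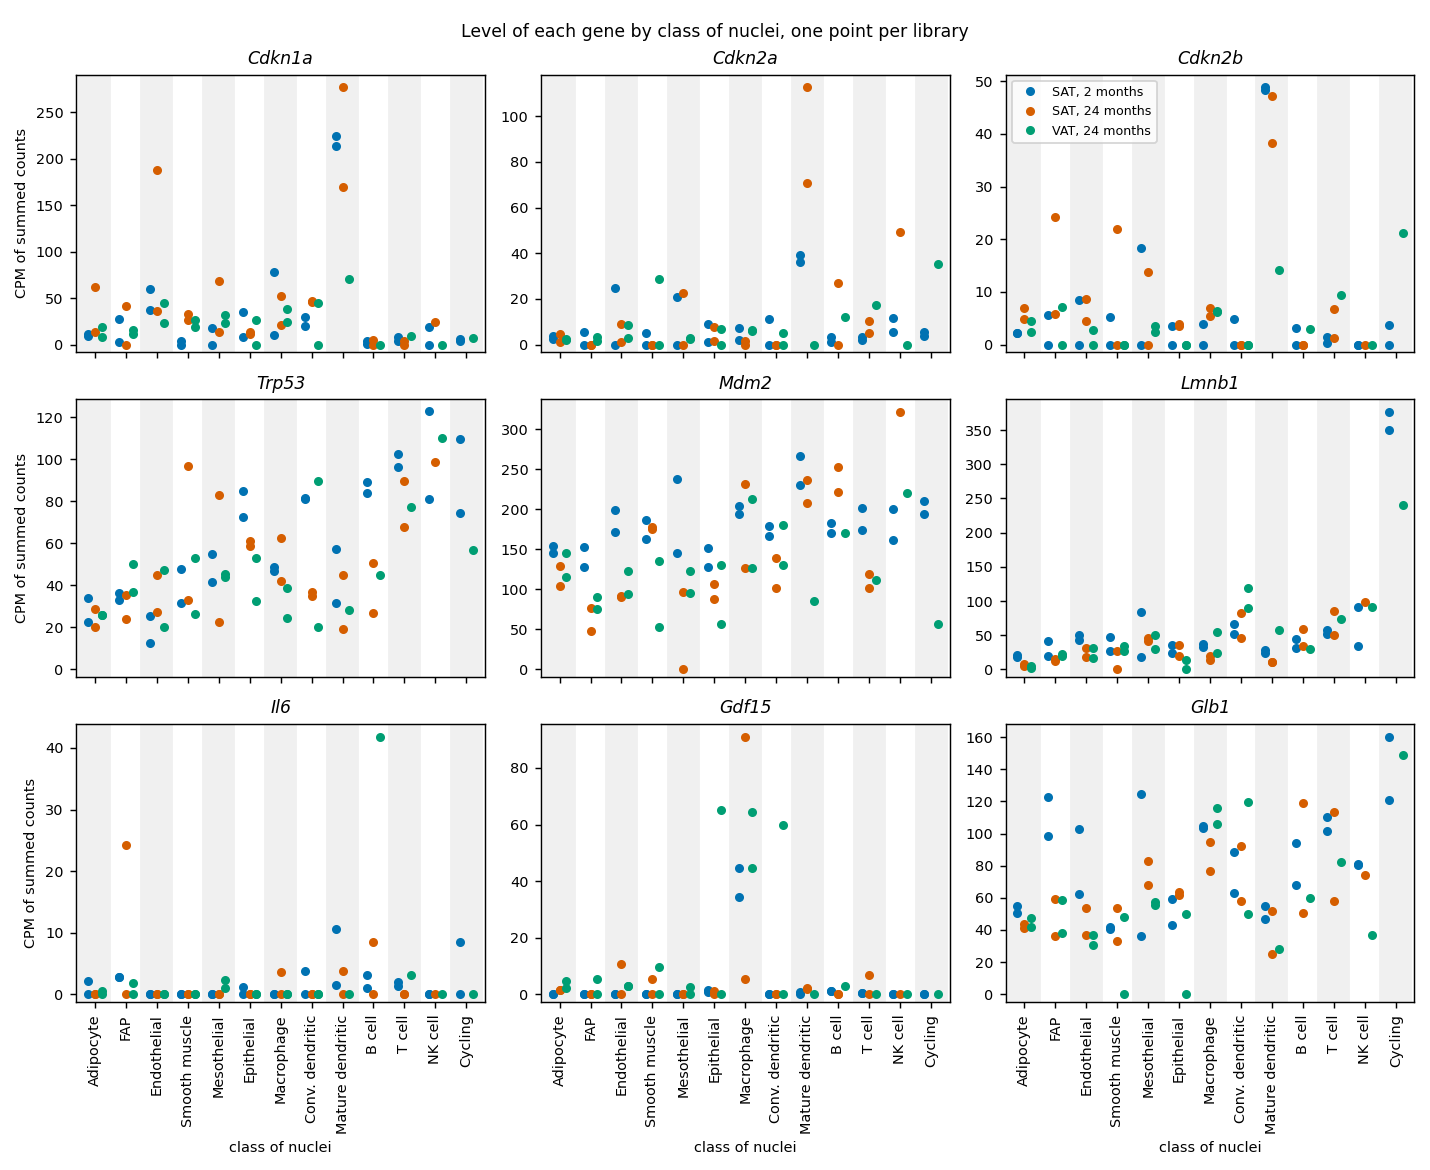
Level of each of the 9 genes (vertical axis, CPM of summed UMIs) in 13 classes of nuclei (horizontal axis), with 1 point per library that held at least 20 nuclei of the class; blue is SAT at 2 months, orange SAT at 24 months, green VAT at 24 months. Cdkn1a, Cdkn2a and Cdkn2b are highest in mature dendritic nuclei, Lmnb1 in cycling nuclei (241 to 376 CPM) and Gdf15 in macrophages (5.36 to 91.0 CPM).

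Cdkn1a (ENSMUSG00000023067, chr17:29309936-29319701 on GRCm39, plus strand) had 2024 UMIs, 32.5% of them in the 4.05% of nuclei that were mature dendritic. Its level there was 213 and 225 CPM in young SAT, 170 and 277 CPM in old SAT and 71.1 CPM in the 1 VAT library with enough nuclei. A UMI was seen in a mean of 26.6% of these nuclei (14.7% after every nucleus was thinned to 1000 UMIs), against 0.316% of B cells (0.0890% after thinning), with medians of 2315 and 1317 UMIs per nucleus. The next class was endothelial, with a mean of 64.7 ± 61.6 CPM (SD, n = 6), followed by macrophages at 37.2 ± 24.6 CPM (n = 6), adipocytes at 20.5 ± 20.9 CPM (n = 6), and T cells at 4.96 ± 3.82 CPM (n = 5), leaving out classes between these. B cells were lowest, at 0 to 5.40 CPM. The gene overlaps Dino on the opposite strand. The ranges of mature dendritic and endothelial nuclei, 71.1 to 277 and 22.9 to 188 CPM, overlapped.

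Cdkn2a (ENSMUSG00000044303, chr4:89192708-89212890, minus strand) had only 370 UMIs, 44.1% of them in mature dendritic nuclei. The mean there was 51.7 ± 42.2 CPM (n = 5), and the next named classes, NK cells at 16.6 ± 22.4 CPM (n = 4) and cycling nuclei at 14.9 ± 17.8 CPM (n = 3), rested on 6 and 8 UMIs. Adipocytes had 2.72 ± 1.32 CPM (n = 6) from 39 UMIs. The mature dendritic value was spread widely, with 36.3 to 113 CPM in the 4 SAT libraries and 0 UMIs in 40 nuclei of the VAT library, which allows a level of up to 42.7 CPM there.

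Cdkn2b (ENSMUSG00000073802, chr4:89223204-89229276, minus strand) had 350 UMIs, of which 39.7% were in mature dendritic nuclei and 25.1% in adipocytes. Its mature dendritic level was 39.4 ± 14.7 CPM (n = 5), with 14.2 CPM in the lowest library, and its adipocyte level was 3.83 ± 1.95 CPM (n = 6). All of Cdkn2b lies within Gm12610, a long noncoding gene on the opposite strand. Since the sources used here do not say whether reads were counted by strand, reads of this pair cannot be told apart. All 3 inhibitors thus had their highest mean in the same class.

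Trp53 (ENSMUSG00000059552, chr11:69469669-69482701, plus strand), which overlaps Wrap53 at its start, had its highest mean in NK cells, at 103 ± 17.8 CPM (n = 4), and in T cells, at 86.7 ± 14.0 CPM (n = 5). Those classes overlapped each other. Adipocytes were lowest of all classes, at 26.2 ± 4.85 CPM (n = 6), and their highest library, 33.9 CPM, was below the lowest T cell library, 68.0 CPM.

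Mdm2 (ENSMUSG00000020184, chr10:117524780-117546730, minus strand) had 8059 UMIs. Its class means ran only from 95.5 ± 38.4 CPM in FAPs (fibro-adipogenic progenitors, n = 6) to 226 ± 68.0 CPM in NK cells (n = 4). Adipocytes held 28.0% of its UMIs and 27.0% of the nuclei. FAPs, 48.4 to 153 CPM, and NK cells, 162 to 321 CPM, did not overlap, whereas most classes between them did. The gene overlaps Gm56970 on the opposite strand.

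Lmnb1 (ENSMUSG00000024590), which overlaps Marchf3 on the opposite strand, stood at 322 ± 71.6 CPM in cycling nuclei (n = 3), the class marked by Mki67 and Top2a. The class held 1.03% of nuclei and 15.9% of the gene's UMIs. NK cells followed at 79.2 ± 29.9 CPM (n = 4), and adipocytes had 10.0 ± 8.13 CPM (n = 6). No other class reached the range of cycling nuclei, 241 to 376 CPM. A UMI was seen in a mean of 49.5% of cycling nuclei (28.1% after thinning) against 1.88% of adipocytes.

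Il6 (ENSMUSG00000025746, chr5:30218112-30224979, plus strand), which lies within the opposite-strand gene Gm42450, had 96 UMIs in 61 of 27074 nuclei, of which 39 nuclei had 1 UMI. By library there were 19 and 23 UMIs in young SAT, 6 and 5 in old SAT, and 7 and 36 in VAT. B cells of VAT replicate 2 gave 14 of these from 7 nuclei, and mature dendritic nuclei of SAT at 2 months, replicate 2, gave 14 from 6 nuclei. Adipocytes had 8 UMIs in 7302 nuclei, and endothelial nuclei had 0 in 1238, which allows a share of up to 0.242% of nuclei with a UMI. Secretion cannot be read from these counts.

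Gdf15 (ENSMUSG00000038508, chr8:71082038-71091537, minus strand) had 222 UMIs, 42.8% of them in macrophages, which were 4.85% of nuclei. Macrophage levels were 34.5 and 44.7 CPM in young SAT, 91.0 and 5.36 CPM in old SAT, and 44.7 and 64.3 CPM in VAT. The lowest library was thus SAT at 24 months, replicate 2, with 3 UMIs in 288 nuclei. Most of the signal was in the macrophage cluster led by Spp1, Gpnmb and Trpm2, chosen after its values were seen, at 95.1 and 93.4 CPM in young SAT, 333 and 0 CPM in old SAT and 109 and 142 CPM in VAT. In T cells the mean was 1.52 ± 2.96 CPM (n = 5).

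Glb1 (ENSMUSG00000045594, chr9:114230144-114303966, plus strand), which shares its strand with the overlapping gene Tmppe, had 3622 UMIs. Its means ranged from 143 ± 20.3 CPM in cycling nuclei (n = 3) and 100 ± 13.3 CPM in macrophages (n = 6) through 46.8 ± 5.30 CPM in adipocytes (n = 6) to 41.3 ± 13.8 CPM in mature dendritic nuclei (n = 5), with less in muscle. Macrophages, 77.0 to 116 CPM, and adipocytes, 41.5 to 54.8 CPM, did not overlap.

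**Figure D2:**
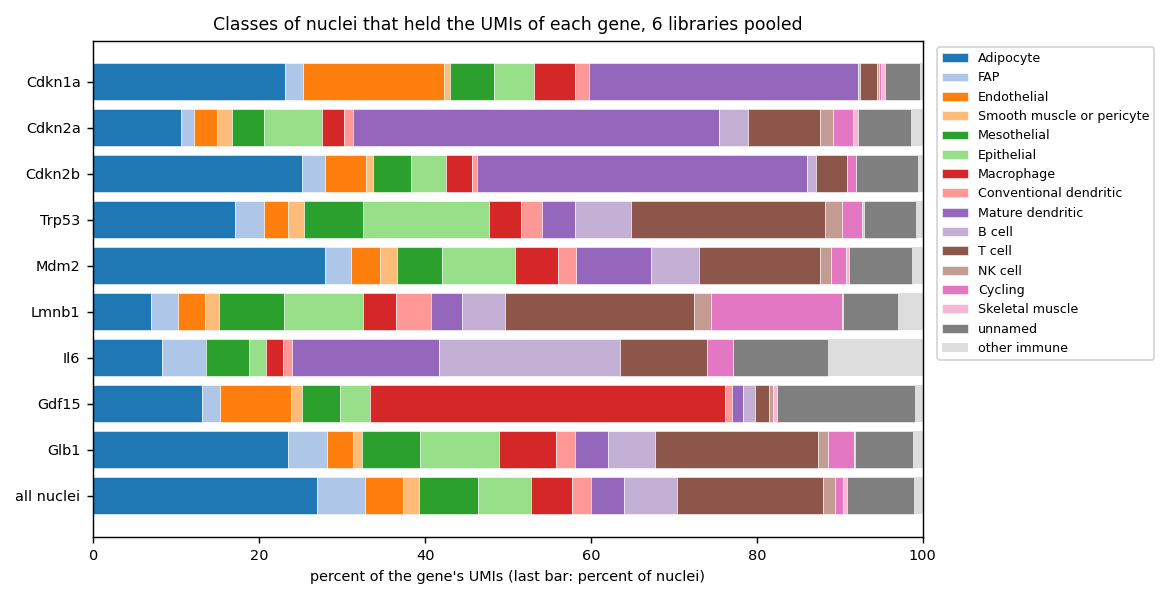
Share of the UMIs of each gene (horizontal axis, percent) that came from each class of nuclei (colours), with the 6 libraries pooled; the last bar gives the share of nuclei in each class. Mature dendritic nuclei, 4.05% of the nuclei, held 32.5% of the Cdkn1a, 44.1% of the Cdkn2a and 39.7% of the Cdkn2b UMIs.

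The first comparison asked how the 9 genes differ with age in SAT. In adipocytes Cdkn1a was higher at 24 months, in mature dendritic nuclei Cdkn2a was higher, and in T cells Mdm2 was lower. These were the only calls among 62 pairs of a gene and a set of nuclei that could be tested with edgeR's quasi-likelihood test on summed counts (adjusted p under 0.05 over all genes tested in that set), and 8 of the 62 had an unadjusted p under 0.05. In the sets that held these 8 pairs, such a p was also seen for 3916 of all 12943 genes in adipocytes, 3290 of 12363 in T cells and 866 of 8223 in FAPs. It was seen for 1280 of 8783 in B cells, 979 of 9494 in mature dendritic nuclei and 1232 of 14354 in all immune nuclei. The count of 8 is therefore not read as a result about the 9 genes. Cdkn1a rested on 1 library. Each of the 3 calls was lost when either library of SAT at 2 months was left out, where the lone young library is assumed to vary like the other groups, while the log2 fold changes stayed at 2.04 and 2.27 for Cdkn1a, 1.39 and 1.48 for Cdkn2a and -0.845 and -0.612 for Mdm2. No gene of the 9 was called in the same direction in more than 1 set of nuclei.

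In adipocytes 1 of 5 genes tested was called, against 14.2% of all 12943 genes. Cdkn1a stood at 9.14 and 11.3 CPM (17 and 10 UMIs) at 2 months and at 13.1 and 62.5 CPM (19 and 348 UMIs) at 24 months. The groups did not overlap, but replicate 2 at 24 months alone was far above the rest. The log2 fold change was 2.14 ± 0.63 (SE, taken as the fold change over the root of the F statistic; n = 2 per group), with an adjusted p of 0.0417 by edgeR. Without that library it was 0.62 with an adjusted p of 0.632. With libraries blocked by crossed replicate numbers, a fit chosen after seeing the data, it was 2.02 with an adjusted p of 0.0632.

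That library was high in Cdkn1a outside adipocytes as well, at 88.6 CPM in all its other nuclei against 21.0 to 47.6 CPM in the other 5 libraries. Immediate early genes, which also respond to tissue dissociation, moved with it in part: their summed level in adipocytes was 80.7 and 121 CPM in young SAT, 135 and 369 CPM in old SAT, and 239 and 453 CPM in VAT. Replicate 2 of VAT, highest in these genes, had 18.7 CPM of Cdkn1a. Their part in the result was not tested. The median mitochondrial share of adipocytes was 0.707% and 0.465% at 2 months and 1.43% and 1.92% at 24 months. The doublet and mitochondrial alternatives left the call in place, with an adjusted p of 0.0400 after the 5% of nuclei with the highest doublet scores were removed.

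The high value of that library was present in more than 1 adipocyte cluster. In the cluster led by Cfd, Adipoq and Scd1, Cdkn1a was at 117 CPM in replicate 2 against 8.93 CPM in replicate 1 and 4.84 and 10.2 CPM at 2 months. In the cluster led by Slc1a3 and Acacb both 24-month SAT libraries were high, at 47.6 and 42.9 CPM (6 and 22 UMIs), against 2.28 and 4.71 CPM at 2 months (1 UMI each) and 1.71 and 0 CPM in VAT (1 and 0 UMIs). This cluster was singled out after its values were seen, and no test was run within clusters.

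Lmnb1 moved the opposite way in adipocytes without passing the threshold. It stood at 18.8 and 21.5 CPM at 2 months, at 8.29 and 4.31 CPM in old SAT and at 4.78 and 2.34 CPM in VAT. Every 24-month library was below both 2-month libraries. The log2 fold change in SAT was -1.61 ± 0.55, with an unadjusted p of 0.0128 and an adjusted p of 0.0715 by edgeR, and 0.0428 when the VAT libraries were left out of the fit. The 13 other alternatives did not call it, with adjusted p-values of 0.0525 to 0.402, and without SAT at 24 months, replicate 2, the log2 fold change was -1.03. Immune markers in adipocyte nuclei, a sign of RNA from other cells, moved with it at 676 and 1119 CPM at 2 months and 262 and 234 CPM in old SAT. Their part in the result was not tested. Trp53, Mdm2 and Glb1 in adipocytes had unadjusted p-values of 0.443 or more, with Mdm2 at 145 and 154 CPM at 2 months and 104 and 130 CPM at 24 months.

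**Figure D3:**
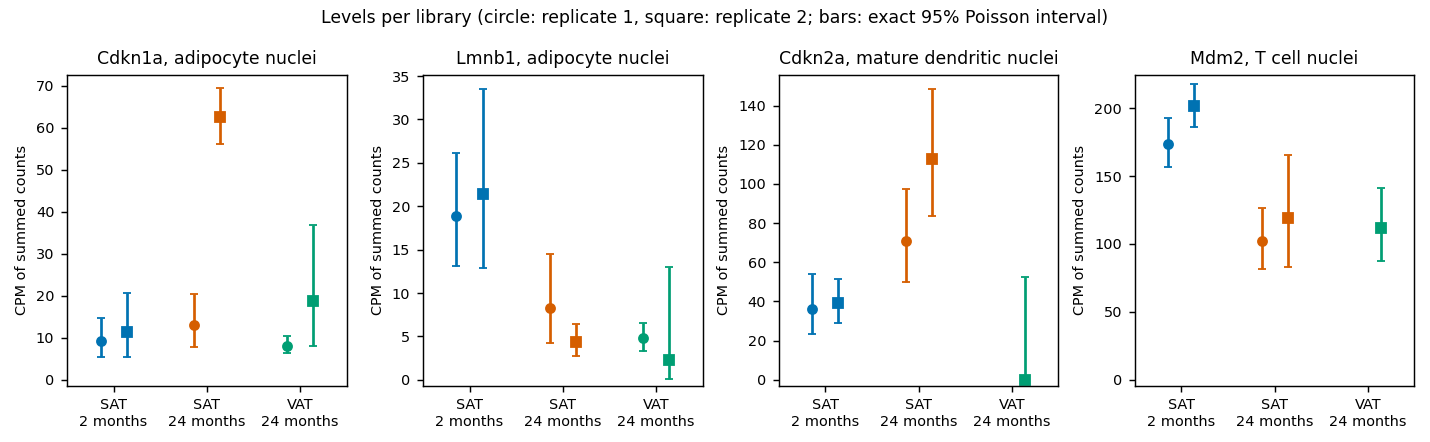
CPM of summed UMIs (vertical axes) in each library for Cdkn1a and Lmnb1 in adipocytes, Cdkn2a in mature dendritic nuclei and Mdm2 in T cells, by group (horizontal axis); circles are replicate 1, squares replicate 2, and bars are exact 95% Poisson intervals, which cover counting error only. Cdkn1a is raised mainly in 1 of the 24-month SAT libraries (62.5 CPM), while Cdkn2a (70.7 and 113 CPM) and Mdm2 (102 and 119 CPM) lie on the same side of the 2-month values in both.

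In mature dendritic nuclei 1 of 7 genes was called, against 1.35% of all 9494 genes tested there. Cdkn2a was at 36.3 and 39.1 CPM at 2 months (24 and 52 UMIs in 192 and 480 nuclei) and at 70.7 and 113 CPM at 24 months (37 and 50 UMIs in 196 and 188 nuclei). Both old libraries were above both young ones. The log2 fold change was 1.42 ± 0.34, with an adjusted p of 0.0129 by edgeR. The share of nuclei with a UMI was 8.85% and 6.67% at 2 months and 12.8% and 15.4% at 24 months, although the median depth was lower at 24 months, 2234 and 1946 UMIs against 3066 and 2346. After thinning the shares were 3.13% and 3.75% against 6.12% and 6.38%.

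Both clusters of this class showed the same order. In the larger, led by Epsti1, Cacnb3 and Fscn1, Cdkn2a was at 28.4 and 27.4 CPM at 2 months and 50.8 and 116 CPM at 24 months, and in the smaller, led by Sgcz and H2-M2, at 67.8 and 84.8 CPM and at 145 and 101 CPM. The median mitochondrial share of these nuclei was 2.10% in each 2-month library and 3.42% and 3.52% at 24 months, and the call held with a mitochondrial limit of 5%. The fit had 5 libraries, since VAT replicate 1 had 1 nucleus of this class. Without SAT at 24 months, replicate 2, the log2 fold change was 1.10 with an adjusted p of 0.158, and DESeq2 gave no adjusted p and an unadjusted p of 0.0161.

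The other inhibitors did not follow Cdkn2a in these nuclei. Cdkn1a, at 213 and 225 CPM at 2 months and 170 and 277 CPM at 24 months, overlapped between the ages. Cdkn2b was at 48.4 and 48.8 CPM and at 38.2 and 47.3 CPM. Its p by edgeR was 0.948 and that of Cdkn1a was 0.440. In all immune nuclei together, Cdkn2a was at 7.96 and 9.71 CPM at 2 months and 27.9 and 34.6 CPM at 24 months, a log2 fold change of 1.94 ± 0.41 with an unadjusted p of 0.00272 and an adjusted p of 0.517. With no filter on low counts it was called, at 1.85 with an adjusted p of 0.0263, and the 13 other alternatives gave adjusted p-values of 0.0528 or more. There, 0 of 8 genes and 0% of 14354 genes were called, and mature dendritic nuclei were 192 of 2745 and 480 of 4351 immune nuclei at 2 months and 196 of 1037 and 188 of 824 at 24 months. The part of this makeup in the sum was not tested.

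In T cells 1 of 5 genes was called, against 15.7% of all 12363 genes, a share close to the background. Mdm2 was at 174 and 201 CPM at 2 months (363 and 623 UMIs) and at 102 and 119 CPM at 24 months (82 and 35 UMIs), and VAT replicate 2 had 112 CPM. The groups did not overlap. The log2 fold change was -0.75 ± 0.22, with an adjusted p of 0.0127 by edgeR and 0.165 by DESeq2. Without SAT at 24 months, replicate 1, the adjusted p was 0.117. The median mitochondrial share of T nuclei was 3.43% and 2.42% at 2 months and 5.00% and 4.23% at 24 months, and the call held with a mitochondrial limit of 5%.

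The makeup of the T cells changed alongside. The cluster led by Scart1, Il23r and Trgc1, genes known from gamma-delta T cells, held 11.6% and 9.19% of T nuclei at 2 months and 56.5% and 57.9% at 24 months. Within that cluster Mdm2 was at 221 and 212 CPM at 2 months and 100 and 107 CPM at 24 months, and within the cluster led by Lef1 and Tcf7 at 187 and 203 CPM and 74.7 and 126 CPM. The old values of the Lef1 cluster rest on 14 and 8 UMIs. In the cluster led by Cd8a the libraries stood at 161 and 218 CPM and at 160 and 153 CPM (8 and 4 UMIs at 24 months). The ages overlapped in the other 2 clusters, at 137 and 162 CPM against 116 and 203 CPM in that led by Ctla4 and Il2ra, and at 146 and 184 CPM against 193 and 0 CPM in the smallest, with 0 to 7 UMIs per library at 24 months. Trp53, at 96.2 and 102 CPM at 2 months and 89.7 and 68.0 CPM at 24 months, did not pass the test, with an adjusted p of 0.608.

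In the remaining sets edgeR called 0 of the genes tested, and DESeq2 also called none there. All nuclei, in whose sums fewer cells of a type and less RNA per cell cannot be told apart, had 9 genes tested against a background of 0% (1794 genes had an unadjusted p under 0.05), FAPs 3 against 0%, endothelial nuclei 5 against 0.0255%, epithelial nuclei 5 against 4%, macrophages 6 against 0%, B cells 5 against 2.65%, and the nuclei named conventional dendritic 4 against 0.738%; in mesothelial nuclei no gene of the 9 could be tested and 0% of 1857 genes were called. The conventional dendritic name holds poorly for 1 of its clusters, with 167 of the 624 nuclei, since that cluster is led by Siglech, Grm8 and Irf8, of which Siglech is known from plasmacytoid dendritic cells, and has none of the class markers among its 10 leading genes. No difference is read from the sums of this mixed set. Among these, 3 pairs had an unadjusted p under 0.05. In FAPs, the progenitors of adipocytes, Mdm2 was at 128 and 153 CPM at 2 months and 48.4 and 76.7 CPM at 24 months (log2 fold change -1.06 ± 0.43, adjusted p of 0.432 by edgeR). Glb1 in FAPs was at 123 and 98.4 CPM and at 36.3 and 59.0 CPM (-1.08 ± 0.47, adjusted p of 0.465). The values of SAT at 24 months, replicate 1, rest on 4 UMIs of Mdm2 and 3 of Glb1 in 57 nuclei. Immune markers in FAP nuclei went from 1128 and 1290 CPM to 629 and 452 CPM, T cell markers from 415 and 615 CPM to 96.7 and 62.0 CPM, and the median mitochondrial share from 1.03% and 0.926% to 2.33% and 2.56%, and their part in these values was not tested. Trp53 in B cells was at 89.3 and 83.7 CPM and at 27.0 and 50.7 CPM (-1.15 ± 0.47, adjusted p of 0.264). The median mitochondrial share of B cells was 1.04% and 0.449% at 2 months and 7.89% and 5.98% at 24 months, and with a limit of 5% the value for Trp53 was -1.04 with an adjusted p of 0.643. In each of these the ages did not overlap, but the differences did not pass the correction.

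In endothelial nuclei a difference was again carried by 1 library. Cdkn1a was at 59.8 and 37.3 CPM at 2 months and at 35.9 and 188 CPM at 24 months, with 302 of its UMIs in replicate 2. Its adjusted p was 0.491 by edgeR. Adipocyte markers in those endothelial nuclei were at 8209 CPM in the same library against 849 to 6102 CPM in the others, and endothelial markers at 3602 CPM against 3144 to 7332 CPM. The median mitochondrial share was 6.58% in that library against 1.40% to 4.08%. The part of adipocyte RNA and of RNA quality in this level was not tested. The cluster led by Mmrn1, Ccl21a and Flt4, genes known from lymphatic endothelium, held 36.4% and 36.0% of endothelial nuclei at 2 months and 12.4% and 5.38% at 24 months. Within the other endothelial cluster, led by Aqp1 and Rgs5, Cdkn1a was at 41.0 and 19.4 CPM at 2 months (3 UMIs and 1 UMI) and at 39.3 and 190 CPM at 24 months. This cluster, 1013 of the 1238 endothelial nuclei, also had 5 smooth muscle or pericyte markers over 2-fold. The part of pericyte RNA in its level was not tested.

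A further 46 pairs were left out of the fit by the filter on low counts. With no filter edgeR fitted 107 pairs in all and called 4, none of them among those left out, and an exact permutation test of 2 against 2 libraries has a smallest p of 0.333. The values of 3 such pairs are given as a description, and these were chosen after their values were seen. Cdkn2b in adipocytes was at 2.15 and 2.26 CPM at 2 months and 4.84 and 7.01 CPM at 24 months (6 and 46 UMIs in all; p = 0.333, exact permutation test, two-sided). Gdf15 in adipocytes had 0 UMIs at 2 months and 10 at 24 months, at 1.38 and 1.44 CPM. Il6 in immune nuclei went the other way, at 2.39 and 3.14 CPM at 2 months (34 UMIs) and 1.05 and 1.93 CPM at 24 months (5 UMIs).

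**Figure D4:**
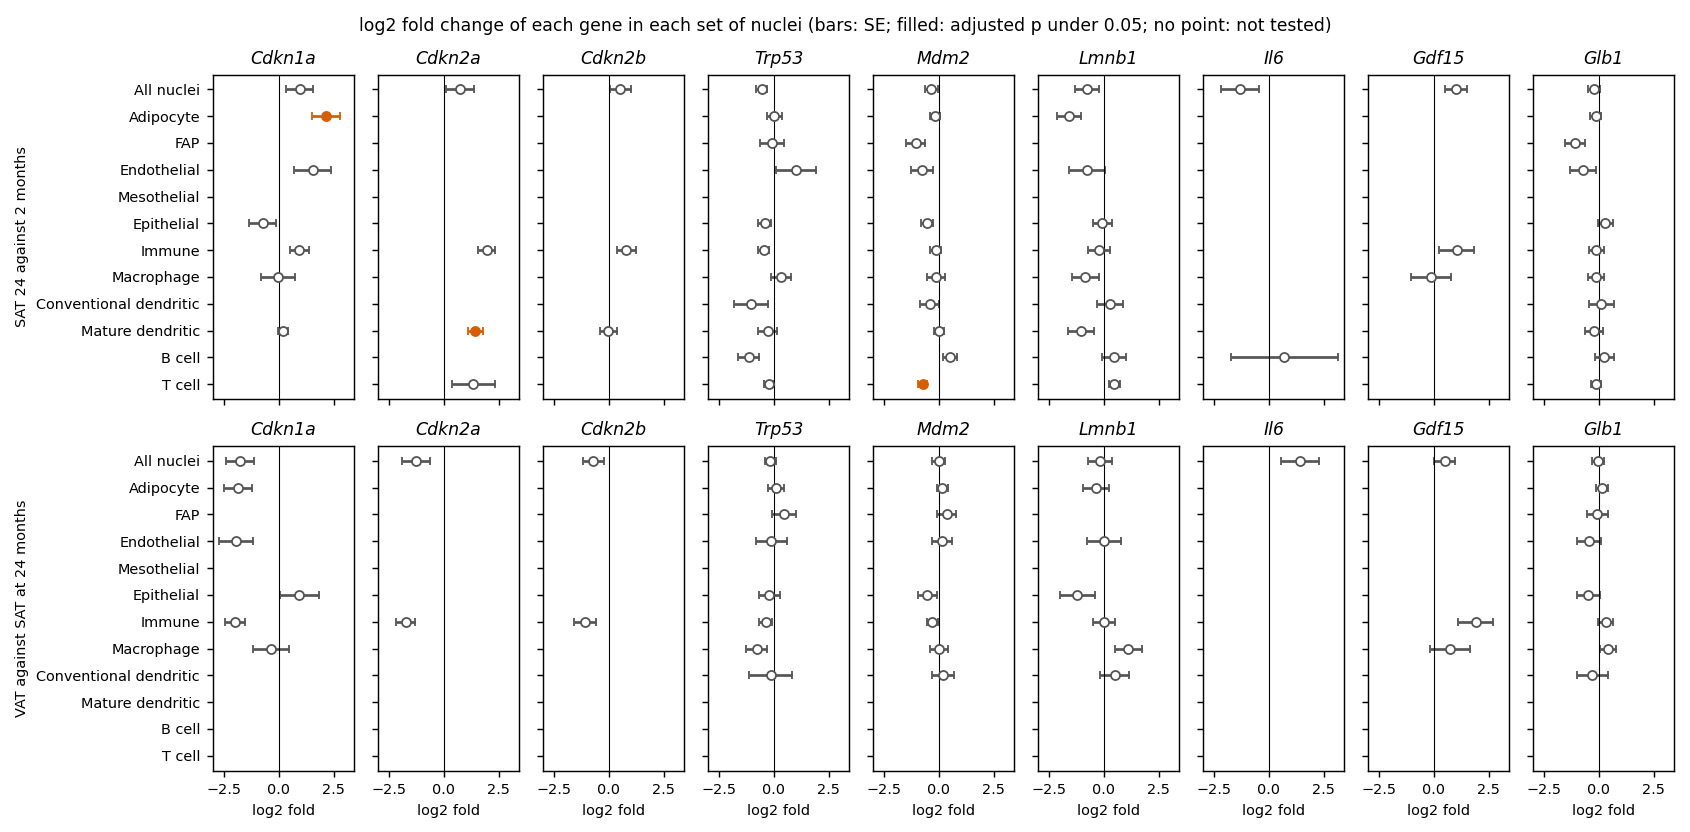
Log2 fold change of each gene (horizontal axes) in each set of nuclei (vertical axis) between SAT at 24 and 2 months (upper panels) and between VAT and SAT at 24 months (lower panels); bars are the SE, filled points have an adjusted p under 0.05, and pairs without a point could not be tested. In the upper panels 3 points are filled and in the lower panels none.

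The second comparison asked how the 9 genes differ between VAT and SAT at 24 months. No gene of the 9 was called: 0 of 45 pairs tested passed by edgeR, 5 had an unadjusted p under 0.05, and DESeq2 also called 0. The background was 0.0138% in all nuclei (9 genes tested), 0.131% in adipocytes (5), 0% in FAPs (3), 0% in all immune nuclei (8), 0% in endothelial nuclei (5), 0.0216% in macrophages (6) and 0% in conventional dendritic nuclei (4). It was 13.4% in epithelial nuclei (5), where VAT replicate 1 had 26 nuclei, and 5.28% in mesothelial nuclei, where no gene of the 9 was tested. In the sets that held the 5 pairs, an unadjusted p under 0.05 was seen for 1657 of 21729 genes in all nuclei and 883 of 12943 in adipocytes. It was seen for 1205 of 14354 in all immune nuclei and 382 of 7842 in endothelial nuclei. The count of 5 is therefore not read as a result about the 9 genes.

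Cdkn1a accounted for 4 of the 5 pairs. In all immune nuclei it was at 20.7 and 19.8 CPM in VAT against 52.6 and 101 CPM in SAT, without overlap (log2 fold change -1.99 ± 0.47, adjusted p of 0.326 by edgeR). In adipocytes it was at 8.17 and 18.7 CPM in VAT against 13.1 and 62.5 CPM in SAT (-1.88 ± 0.63, adjusted p of 0.557), and the groups overlapped. In endothelial nuclei it was at 44.5 and 22.9 CPM against 35.9 and 188 CPM (-1.96 ± 0.76, adjusted p of 0.909), and the groups overlapped. The lymphatic cluster described above held 13.6% and 51.1% of endothelial nuclei in VAT against 12.4% and 5.38% in SAT, and the part of this makeup was not tested. The value in all nuclei was -1.76 ± 0.63 with an adjusted p of 0.607.

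The adipocyte difference rested on the same SAT library as the age difference, and without it was -0.31 with an adjusted p of 0.999. Without that library the value was -0.052 in endothelial nuclei and -0.68 in all nuclei, with adjusted p-values of 1 and 0.976, and in immune nuclei it was -1.50 with an adjusted p of 0.718. Without SAT at 24 months, replicate 1, Cdkn1a was called in adipocytes, with a log2 fold change of -2.57 and an adjusted p of 0.00156, since the high library then stood alone for SAT. In immune nuclei the makeup also differed, with 196 of 1037 and 188 of 824 nuclei mature dendritic in SAT and 1 of 328 and 40 of 1192 in VAT, which is the class highest in Cdkn1a, and the part of this makeup was not tested. The age and depot comparisons share the SAT libraries at 24 months, so opposite signs between them are not separate evidence.

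Cdkn2a in immune nuclei was the fifth pair, at 5.17 and 12.8 CPM in VAT against 27.9 and 34.6 CPM in SAT (-1.75 ± 0.45, adjusted p of 0.385 by edgeR). Gdf15 went the other way there, at 41.3 and 11.2 CPM in VAT against 8.41 and 4.49 CPM in SAT, with an unadjusted p of 0.0545, while macrophages were 271 of 328 and 192 of 1192 immune nuclei in VAT and 79 of 1037 and 288 of 824 in SAT. The part of this makeup was not tested. In macrophages alone, its main class, the depots overlapped at 44.7 and 64.3 CPM against 91.0 and 5.36 CPM. Trp53, Mdm2, Lmnb1 and Glb1 had no unadjusted p under 0.05 in any set of nuclei between the depots; in adipocytes Mdm2 was at 115 and 145 CPM in VAT and 104 and 130 CPM in SAT, and Glb1 at 47.8 and 42.1 CPM and 41.5 and 44.0 CPM. A further 36 pairs were left out by the filter on low counts, and with no filter none of them was called. That fit with no filter did call Cdkn1a lower in VAT in all nuclei, adipocytes and immune nuclei.

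The genes around the 9 were followed by 10 lists of 155 genes in all, taken for the roles of p53, the G1 arrest, proliferation, the lamina, the secretory phenotype, interleukin-6 signalling, stress, the lysosome and the early response. In adipocytes, at 24 against 2 months in SAT, 19 of 119 list genes tested were called, 16.0% against 14.2% of all genes, and in T cells 21 of 120, 17.5% against 15.7%. In mature dendritic nuclei 2 of 102 were called, 1.96% against 1.35%. These shares are close to the background, so the lists as a whole are not set apart by them.

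Among p53 targets in adipocytes, 3 of 19 rose and 1 fell, with a median log2 fold change of 0.26 against 0.00 for all genes. Sesn1, a stress-responsive regulator of mTORC1, rose by 1.07 ± 0.26 on the log2 scale (adjusted p of 0.0199 by edgeR), from 107 and 92.6 CPM to 217 and 158 CPM. Fas, the death receptor, rose by 1.02 ± 0.26, and Gadd45a, a DNA damage response gene, by 1.30 ± 0.38. Trp53inp1 fell by 0.87. The calls of Fas and Gadd45a were lost without SAT at 24 months, replicate 2, the library high in Cdkn1a, that of Gadd45a also with DESeq2, and that of Trp53inp1 under 8 of 14 alternatives, while the log2 fold changes stayed at 0.82 to 1.37, 0.96 to 2.13 and -1.18 to -0.56. Fas also lost its call without either library of SAT at 2 months, and Gadd45a without replicate 2 of that group and under the crossed replicate block. The call of Sesn1 was lost without either library of SAT at 2 months or without SAT at 24 months, replicate 1. Its log2 fold change stayed at 0.875 to 1.35. Of the 19 list genes called in adipocytes, Cdk6 and Hgf kept their call under every alternative run. Of 8 p53 regulators tested in adipocytes 0 were called; Atr, with the smallest p, had 0.78 ± 0.26 and an adjusted p of 0.0695.

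In the G1 arrest list of adipocytes, 1 of 17 genes rose and 3 fell, with a median of 0.06. Cdk6, a partner kinase of D-type cyclins and the target of p15 and p16, fell by 2.82 on the log2 scale (SE 0.35, adjusted p of 4.94e-04), from 51.6 and 71.1 CPM to 6.91 and 8.08 CPM, and Ccnd3, or cyclin D3, fell by 1.49. Ccnd3 was far higher in T cells, at 1835 and 2457 CPM at 2 months against 172 and 230 CPM in adipocytes, and T cell markers in adipocyte nuclei went from 273 and 495 CPM to 60.1 and 37.4 CPM, beside the immune markers given for Lmnb1. Their part in the adipocyte calls was not tested. Rb1 rose by 0.83 ± 0.24, and Cdk2 fell by 1.07, a call lost under 8 of 14 alternatives. In the proliferation list 0 of 10 were called, with a median of -1.27; Mki67 was at 9.14 and 10.2 CPM at 2 months and at 0.691 and 2.16 CPM at 24 months (adjusted p of 0.0662). In the lamina list Banf1 rose by 1.73 ± 0.44 and Sun2 fell by 0.89 out of 10.

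Of 17 secretory genes tested in adipocytes, 3 rose and 0 fell, while the median was -0.16. Hgf, hepatocyte growth factor, rose by 2.16 ± 0.37 (adjusted p of 0.00320), from 11.8 and 9.03 CPM to 44.9 and 41.5 CPM, and Ccl7 and Igfbp5 rose by 2.78 ± 0.77 and 1.99 ± 0.48. Igfbp5 stood at 40.9 and 31.6 CPM at 2 months and at 59.4 and 199 CPM at 24 months, and Ccl7 at 0.538 and 5.65 CPM and at 15.2 and 14.9 CPM. Both calls were lost without SAT at 24 months, replicate 2, the library high in Cdkn1a, and over the alternatives the log2 fold changes went as low as 0.92 for Igfbp5 and 1.65 for Ccl7. Of 8 interleukin-6 signalling genes, Il6ra, the receptor's own subunit, fell by 1.20, from 386 and 315 CPM to 150 and 123 CPM. Of 6 early response genes tested, Fos, Jun and Dusp1 rose, with a list median of 1.88. Jun was at 20.4 and 9.03 CPM at 2 months and 27.6 and 71.7 CPM at 24 months, Fos at 1.08 and 4.52 CPM and 12.4 and 60.9 CPM, and Dusp1 at 10.2 and 27.1 CPM and 47.7 and 119 CPM, each highest among the SAT libraries in the same replicate 2. The call of Jun was lost without that library or without SAT at 2 months, replicate 2, and those of Fos and Dusp1 without SAT at 2 months, replicate 1, with log2 fold changes as low as 1.03, 2.66 and 1.73 over the alternatives. Chac1 was the 1 of 8 stress genes around Gdf15 to be called and fell by 2.74, and Ctsa, whose product protects beta-galactosidase in the lysosome, was the 1 of 16 lysosomal genes and fell by 0.92.

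In T cells the calls came from several lists and went both ways. The CDK inhibitor gene Cdkn2d fell by 1.11 on the log2 scale and the p53 target Fas by 1.08, against its rise in adipocytes. Of the lamina list Lmna rose by 1.09, while Sun2 fell by 1.03 and Lbr by 0.629. Of the secretory list Il15, Csf2 and Cxcl10 rose by 2.12, 3.22 and 2.47, and Igfbp4 and Plaur fell by 2.4 and 4.2. Among these, Sun2, Il15 and Igfbp4 kept their call under every alternative. Rb1 and Rbl2, which restrain E2F, rose by 1.08 ± 0.20 and 1.41 ± 0.20 among 18 genes of the G1 arrest list, where 4 rose and 2 fell. Il6st, the signalling chain shared by interleukin-6 receptors, stood at 446 and 478 CPM at 2 months and 34.9 and 47.6 CPM at 24 months and fell by 3.52 (adjusted p of 6.53e-15 by edgeR). Il6ra stood at 367 and 380 CPM and at 73.5 and 34.0 CPM and fell by 2.57. The same receptor genes were called lower in B cells, where 2 of 8 genes of the list were called against 2.65% of all genes. Il6st went from 155 and 259 CPM to 10.8 and 8.44 CPM (log2 fold change -4.28) and kept its call under each of 13 alternatives. Il6ra went from 146 and 156 CPM to 43.2 and 0 CPM (-2.45) and lost its call under 7 of 13, DESeq2 among them, with log2 fold changes of -9.47 to -1.74. The mitochondrial share of B cells was higher at 24 months, as given for Trp53, and with a limit of 5% the call of Il6st was kept and that of Il6ra was lost. The B cell cluster led by Ighd, Bank1 and Btla also carried 8 T cell markers at over 2-fold. It held 155 of 608 and 275 of 713 B nuclei at 2 months, and 27 of 117 and 7 of 71 at 24 months. Its part in the B cell values was not tested. T cell clusters changed their shares as given above, and the part of that change was not tested. In mature dendritic nuclei, where Cdkn2a rose, 0 of 18 p53 targets and 0 of 8 regulators were called by edgeR, Ccnd3 fell by 1.06, and Tnf was called higher although its libraries overlapped, at 51.5 and 27.8 CPM and 166 and 33.8 CPM.

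Between the depots, list genes were called in epithelial nuclei and, 2 of 24 against 5.28% of all genes, in mesothelial nuclei alone of the 9 sets. The mesothelial genes were Rb1 and Ccnd1, and each lost its call under 7 of 12 alternatives. In epithelial nuclei 15 of 125 were called, 12.0% against 13.4% of all genes. Rb1 was lower by 4.04 on the log2 scale in VAT and Ccnd1 by 6.22, and ovary and oviduct markers stood there at 631 CPM in VAT replicate 2 against 24.2 to 65.3 CPM in the other libraries. The class held a cluster that matched a mammary list best, led by Itprid1, Gpc6 and Csn3, and a cluster led by Areg. The first had 234 and 332 nuclei in old SAT and 19 and 20 in VAT, the second 108 and 196, and 7 and 118. Areg stood at 755 and 1722 CPM in old SAT and at 0 CPM in both VAT libraries. Depot and kind of epithelium thus cannot be told apart here.

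For each gene with at least 200 UMIs, the 3 genes most like it in pattern were taken by Pearson's r of log2(CPM + 10) over 72 points of class and library in 14 classes, among 12196 genes, as a description, since points of a library share its depth. Lmnb1 was followed most closely by Top2a (r = 0.808), Lockd and Wdr76. Cdkn2b was most like Gm20465 (0.786), Gm12610, within which it lies, and Gm26535, and Gdf15 like C5ar1 (0.749), Ccl6 and Cd209f. Glb1 was most like Phkg2 (0.732), Trp53 like Zfhx2 (0.687), Cdkn1a like Papss2 (0.662), Mdm2 like Fbrs (0.651) and Cdkn2a like Insm1 (0.606).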

How the data were processed

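The values deposited by the authors are UMI counts as whole numbers for each gene and barcode, not normalized. Per the study's methods, nuclei were captured with the Singleron GEXSCOPE kit, read on an Illumina HiSeq, and processed with Celescope against GRCm39; its version, the annotation release and the use of strand are not given in the sources used here. Deposited barcodes held 500 UMIs or more. The 9 genes and the lists were chosen with earlier results of these data known.

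Of 50859 barcodes, 27074 were kept, those above 500 genes and 1000 UMIs and below 15% of UMIs from mitochondria. Clusters were made with an own implementation of Harmony and Leiden (resolution 2.0 over all nuclei, 1.0 over immune nuclei; scanpy 1.11.5, leidenalg 0.10.2), giving 40 clusters and 20 immune sub-clusters, and were named from marker lists by a rule adjusted after looking at the clusters: at least 3 markers over 2-fold. The 9 genes, the lists and mitochondrial genes were left out of the variable genes. Scrublet's automatic threshold marked 36 nuclei (0.133%), so doublets were kept and the highest 5% of scores were removed as an alternative.

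Counts were summed per library and class, libraries with under 20 nuclei of a class were left out, and edgeR 4.0.16 (TMM, filterByExpr, quasi-likelihood test, 3 groups in 1 fit) was run on R 4.3.3 for each class, with Benjamini-Hochberg adjustment over all genes tested in a class and contrast. TMM factors enter fold changes but not the CPM given. The scripts were tested on simulated data. Alternatives were DESeq2 1.42.0 and its size factors, no filter, a replicate block, the 4 libraries compared alone, each library left out, and a mitochondrial limit of 5%. Depth was 8061862 to 16226690 UMIs per library; intervals, limits and floors (3 counts) describe the error of counting alone. All 9 genes are named. Of each list, up to 3 called genes per direction by p, or the 2 with the smallest p where none was called, were set aside, and only a part of these is named in the text. Gene positions are from GENCODE M39 on GRCm39. Promoter sequences are from RefSeq on GRCm38.p6, a different build.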

Additional observations from a re-analysis of the deposited data

Results flagged for a closer look

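Il6 stood out in 1 immune sub-cluster that was left unnamed, since its leading genes (Ighg2b, Ighm, Iglc2 and Mki67) held more markers of B cells than of the cycling list it matched best, and that had no comparison of its own, although its nuclei are in the sums over all immune nuclei. It had 11 UMIs of Il6 in 295 nuclei, or 22.12 CPM with an exact 95% Poisson interval of 11.04 to 39.58 CPM, against 8.18 CPM in B cells, the named class with the highest pooled level. By library the UMIs were 2 and 1 in SAT at 2 months, 0 and 0 in SAT at 24 months, and 0 and 8 in VAT. All 8 UMIs of VAT replicate 2 were in 1 of its 64 nuclei, and UMIs of 1 nucleus are not independent, so the interval is too narrow.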

How the results depend on the processing

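In SAT at 24 against 2 months, 3 pairs were called. DESeq2 called 1 (Cdkn1a in adipocytes) and gave no adjusted p for Cdkn2a in mature dendritic nuclei, and leaving out 1 library gave 0 to 3 calls: 0 without either library of SAT at 2 months, 2 without SAT at 24 months, replicate 1 (Mdm2 lost), 2 without replicate 2 (Cdkn1a and Cdkn2a lost, Lmnb1 in T cells gained), and 3 without either VAT library. Between the depots, 0 pairs were called. With no filter there were 4 calls for age (Cdkn2a in immune nuclei gained) and between the depots 3 (Cdkn1a in all nuclei, adipocytes and immune nuclei), and leaving out 1 library gave 0 to 1. The replicate block gave 3 and 0 calls. Numbers did not pair the samples: the deviations of same-numbered libraries correlated at -0.266 for age and -0.476 for depot over all nuclei, and at -0.0867 and 0.105 in adipocytes. A crossed replicate block, added after seeing the data, gave 2 and 0 calls (Cdkn1a in adipocytes lost, with a log2 fold change of 2.02 and an adjusted p of 0.0632). Removing the 5% of nuclei with the highest doublet scores, also added later, gave 3 and 0.

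The 13 pairs with an unadjusted p under 0.05 kept their direction under every alternative run. Of the other pairs, 26 of 54 for age and 19 of 40 for depot changed sign under at least 1 alternative. The called list genes set aside by p, up to 3 per direction of each list, are not all named in the text. Of them, 2 of 19 in adipocytes (Cdk6 and Hgf), 7 of 20 in T cells, 1 of 4 in B cells (Il6st), 0 of 2 in mature dendritic nuclei and 0 of 3 in epithelial nuclei kept their call for age under every alternative. Between the depots, 4 of 15 in epithelial and 0 of 2 in mesothelial nuclei did so. Changes of sign, each under 1 alternative, were seen for Tnf in mature dendritic nuclei (lowest log2 fold change -0.0178), Cxcl10 in T cells (-4.98) and Cenpf in epithelial nuclei between the depots (-6.70). With 2 libraries per group and 96 to 370 UMIs for Il6, Gdf15, Cdkn2a and Cdkn2b, smaller differences in these genes could not be detected. The cause of these changes was not tested.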

Other observations

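Cyclin D3 (Ccnd3), a partner of CDK4 and CDK6 in leaving G1, was called lower at 24 months in 4 classes of SAT nuclei and was chosen after its values were seen. It was at 172 and 230 CPM at 2 months and 67.0 and 60.9 CPM at 24 months in adipocytes, at 1835 and 2457 CPM and 1093 and 911 CPM in T cells, and at 1580 and 2244 CPM and 540 and 566 CPM in B cells. In mature dendritic nuclei it was at 522 and 507 CPM and 229 and 207 CPM. The ages did not overlap in any of these, and edgeR's log2 fold changes were -1.49 ± 0.26, -1.05 ± 0.20, -1.71 ± 0.34 and -1.06 ± 0.22, with adjusted p-values of 0.00375, 6.75e-05, 0.0148 and 0.00261. In adipocyte nuclei immune markers moved alongside, at 676 and 1119 CPM at 2 months and 262 and 234 CPM at 24 months, as did T cell markers, at 273 and 495 CPM and 60.1 and 37.4 CPM. The sum of the B cell list went the other way, at 1002 and 1136 CPM and 4580 and 3350 CPM. That list holds Ebf1, which the study uses as a preadipocyte marker, so its sum in adipocyte nuclei cannot be read as B cell RNA. The part of immune and T cell RNA in the adipocyte call was not tested. In macrophages Ccnd3 was at 512 and 688 CPM and 308 and 236 CPM, with an adjusted p of 0.344. In epithelial nuclei it was at 408 and 547 CPM and 404 and 347 CPM and was not called. The calls were lost in adipocytes, T cells and B cells without SAT at 2 months, replicate 2, and in mature dendritic nuclei without either library of SAT at 2 months. Over all alternatives the log2 fold changes stayed at -1.60 to -1.23, -1.25 to -0.807, -1.93 to -1.42 and -1.17 to -0.958 in the order above. The mitochondrial share of B cells was higher at 24 months, and the makeup of T cells differed, as given for Trp53 and Mdm2. The B cell cluster that also carried T cell markers changed its share of B nuclei, as given for Il6st. The calls in T cells and B cells held with a mitochondrial limit of 5%, and the part of the T cell and B cell makeup was not tested.

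Rb1, which cyclin D kinases inactivate, went the other way, at 125 and 132 CPM at 2 months and 201 and 206 CPM at 24 months in adipocytes and at 134 and 130 CPM and 264 and 279 CPM in T cells, both called. The cluster led by Scart1 and Il23r went from 11.6% and 9.19% to 56.5% and 57.9% of T nuclei alongside, and its part in the T cell call was not tested. In macrophages it was at 150 and 120 CPM and 287 and 254 CPM, with an adjusted p of 0.329. The call in T cells held under every alternative run, and that in adipocytes was lost without each single SAT library in turn and under the crossed replicate block, while its log2 fold change stayed at 0.82 to 1.08.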
